A study of Eohaustorius estuarius with 16 samples.

Results

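Among the contigs of the estuarine amphipod Eohaustorius estuarius measured after exposure to cyfluthrin, 116 were moderately raised, that is, higher in exposed than in control animals by 2-fold to 4-fold. They were taken from 8507 contigs on the array, of which 6852 passed a detection filter, being well above background on 8 or more of 16 arrays. A contig here is an assembled transcript sequence of this species, measured by 1 array probe. A member had a cyfluthrin mean between 1 and 2 log2 units above the control mean in the authors' deposited value table. In addition, every cyfluthrin value lay above the control median, and every control value lay below the cyfluthrin median. These values chose the members, so the difference between the groups is given below as a description and is not tested for them.

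The control animals spent 10 days in sediment spiked with solvent, and the exposed animals spent the same time in sediment spiked with cyfluthrin at a nominal 1.6 µg/kg. Laboratory F of an interlaboratory comparison extracted RNA from whole bodies and hybridised 8 control and 8 cyfluthrin samples, each to 1 one-colour array. The labels give no sex, life stage or strain and do not say whether the samples came from separate animals or containers, so the spread behind each p-value is that between samples, which may be technical. In whole bodies, a larger share of cells of one type and more RNA per cell cannot be told apart.

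Cyfluthrin is a pyrethroid insecticide. Pyrethroids hold the voltage-gated sodium channels of arthropod nerve cells open, which leads to repeated firing and paralysis, and crustaceans are known to be sensitive to them. Arthropods break pyrethroids down with carboxylesterases and cytochrome P450 enzymes, and stress of this kind is widely studied through heat shock proteins and glutathione transferases. The files used here give the probes contig numbers and no gene names or sequences, so none of these gene families could be looked up. The contigs are therefore described by number, signal and behaviour across samples.

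The arrays of cyfluthrin replicates 5 and 6 differed by less than the software's own error estimate. As a ratio to that estimate, their squared difference was 0.877, and it was 3.33 for control replicates 2 and 3, the pair that came next. The names of both files carry the same sample code, although the labels number the samples separately. The pair was averaged and counted as 1 sample, which left 8 control and 7 cyfluthrin samples. Unscaled, the 75th percentile of an array's log2 signal ran from 6.15 to 7.60 in controls, with control replicate 7 lowest, and from 7.40 to 8.14 with cyfluthrin. The share of all contigs well above background ran from 67.6% to 89.4% in controls and from 77.6% to 83.2% with cyfluthrin. All values below are log2 values relative to the contig's own median over the 16 arrays, as in the authors' table, unless a signal scale is named. The number of arrays limits their precision.

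The median difference of the 116 contigs was 1.22 log2 units, or 2.33-fold, with a range from 1.002 to 1.96. Over all 6852 tested contigs the median difference was -0.024. Most members lay near the lower end. A difference between 1 and 1.25 was found in 61 of them, between 1.25 and 1.5 in 33, and above that in 22. The median of the control means was -0.68 and that of the cyfluthrin means was 0.55. Differences of at least 1 were found in 4.13% of the tested contigs.

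**Figure D1:**
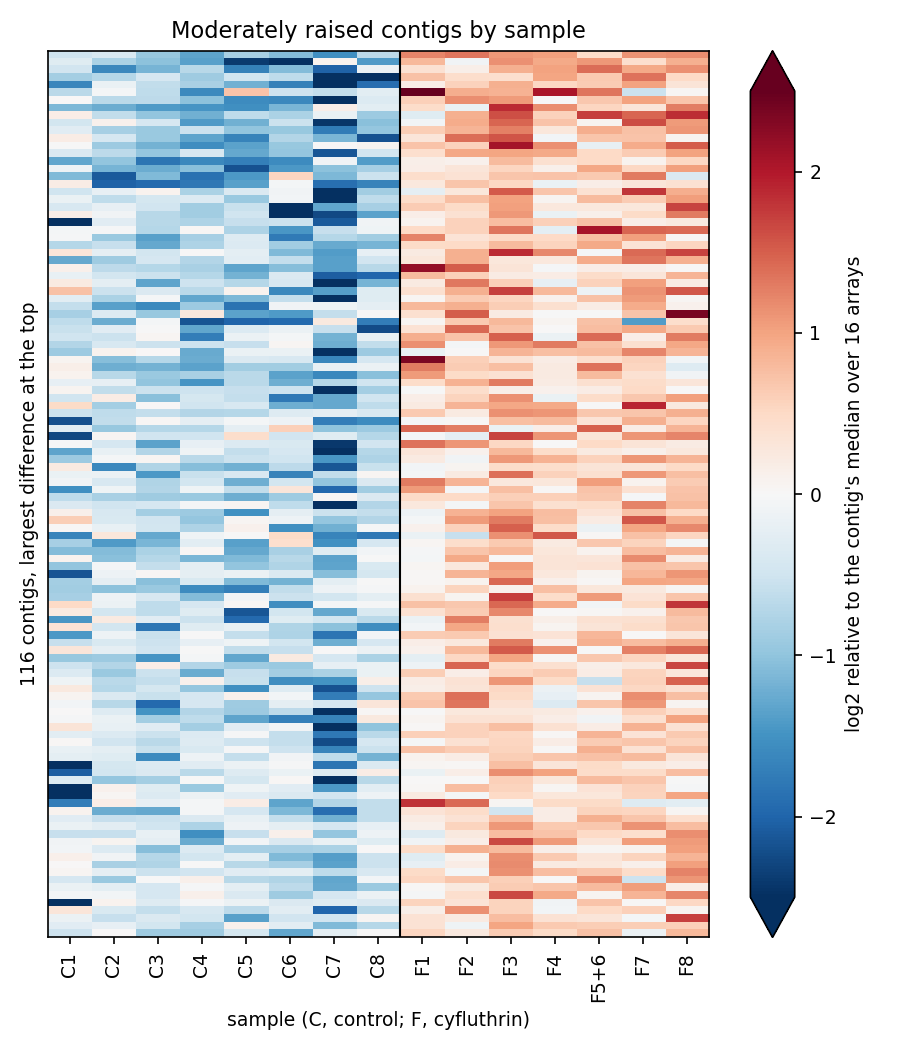
Heat map of the 116 contigs (rows, largest difference at the top) in 8 control (C) and 7 cyfluthrin (F) samples, as log2 relative to each contig's median over 16 arrays, with colours limited at -2.5 and 2.5. Values are lower on the left of the line and higher on the right, and the deepest low values stand in control replicates 1 and 7.

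Taken sample by sample, the median over the 116 contigs was lowest in control replicate 7, at -1.27, and highest among controls in replicate 1, at -0.28. The median of the 8 control values was -0.59. Among cyfluthrin samples, replicate 1 was lowest at 0.23, the median was 0.56, and replicate 3 was highest at 0.78. The groups did not overlap on this value, which the choice of the members fixes. The mean of the sample medians was -0.62 ± 0.29 (SD, n = 8) for control animals and 0.53 ± 0.20 (SD, n = 7) for exposed ones.

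**Figure D2:**
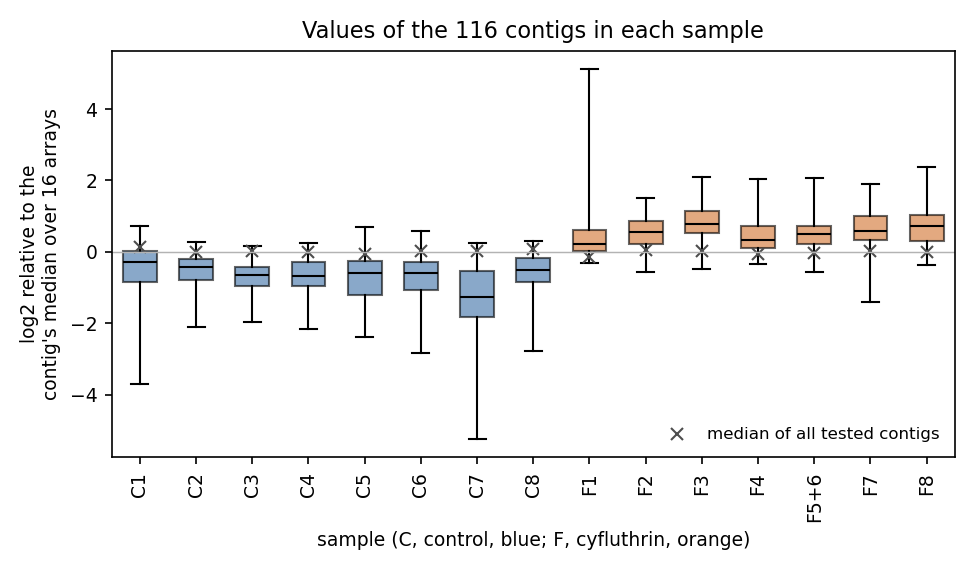
Box plots of the 116 contigs in each sample, on the log2 scale relative to each contig's median over 16 arrays, with the median, quartiles and whiskers to the lowest and highest contig; crosses mark the median of all tested contigs. Control replicate 7 has the lowest median, at -1.27, and the highest single value, 5.11, is in cyfluthrin replicate 1.

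The contigs at the edges of the range show how the members join the rest. The smallest differences were 1.002 in contig_2157 and 1.004 in contig_8470. Just below the lower limit, contig_2558 and contig_1658 met the other conditions, with 0.9996 and 0.998. The largest differences within the range were 1.96 in contig_5236 and 1.96 in contig_5924. The first was well above background on 1 control array only, and on the 75th-percentile signal scale the differences were 1.43 and 1.84. The nearest above it were 2.13 in contig_3297 and 2.14 in contig_2489. Close to the lower limit the contigs were dense, with 16 members less than 0.05 above it and 18 contigs less than 0.05 below it. A further 114 contigs had a difference between 1 and 2 and failed the conditions on single samples. Of these, 32 failed only because a cyfluthrin value lay at or below the control median, 34 only because a control value lay at or above the cyfluthrin median, and 48 on both grounds.

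Values of the groups were fully apart in 39 of the 116 contigs and overlapped in 77. Of all tested contigs, 1.85% were apart with cyfluthrin higher. The gap between the lowest cyfluthrin and the highest control value ran from -1.63 to 0.84. It was widest in contig_5236, where control values ran from -1.54 over a median of -0.88 to -0.38 and cyfluthrin values from 0.46 over a median of 1.11 to 1.34. Cyfluthrin replicates 5 and 6, averaged, held the lowest exposed value of this contig. The second widest gap, 0.82, was in contig_8208, with controls from -2.82 to -0.41 (median -0.78) and cyfluthrin samples from 0.41 to 1.35 (median 0.65). Its lowest controls were replicates 7 and 8, at -2.82 and -2.76, far under the other controls. In controls these contigs were often not detected, with 1 and 5 of the 8 arrays well above background, while every cyfluthrin array detected both.

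The raised contigs covered the whole range of signal. On the scale of the scanner's processed signal over the array's 75th percentile, the mean signal of the members ran from -5.28 to 5.21 log2 units with a median of -2.13, and the median of all tested contigs was -1.41. Probes differ in how strongly they bind, so these signals do not rank transcripts by abundance. When the tested contigs were divided into 5 groups of equal size by mean signal, the dimmest held 41 of the members, the next 3 held 19, 15 and 17, and the brightest held 24. These are 2.99%, 1.39%, 1.09%, 1.24% and 1.75% of the contigs in each group.

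The brightest probe was that of contig_2356, with a signal of 5.21 and a difference of 1.35. Its control values ran from -2.60 over a median of -0.53 to 0.090, and its cyfluthrin values from -0.16 over 0.80 to 1.22. The groups overlapped, since cyfluthrin replicates 1 and 2 lay within the range of the controls. The next brightest was contig_6175, with controls from -1.68 to 0.043 (median -0.47) and cyfluthrin samples from -0.043 to 1.37 (median 0.58). Both probes were well above background on all arrays.

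The dimmest were contig_5949, at a signal of -5.28, and contig_4457, at -5.04. Contig_5949 had controls from -0.9995 to 0.59 (median -0.72) and cyfluthrin values from -0.16 to 1.499 (median 0.85), and was well above background on 2 control and 6 cyfluthrin arrays. Contig_4457 had controls from -2.17 to 0.24 (median -1.48) and cyfluthrin values from -1.39 to 0.81 (median 0.45), and was well above background on 1 control and 7 cyfluthrin arrays. In both, the groups overlapped widely.

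Detection differed between the groups in the same direction as the values. All 8 cyfluthrin arrays were well above background for 108 members (93.1%) and all 8 control arrays for 63 (54.3%), against 86.5% and 75.6% of the tested contigs. At most 4 control arrays were well above background for 27 members, and at most 4 cyfluthrin arrays for 0, where the lowest number was 6. The filter and the rule largely fix this, since a contig weak in controls could pass only through its cyfluthrin arrays. Between arrays, the share of members well above background ran from 56.9% in control replicate 7 to 93.1% in control replicate 5, and from 95.7% to 100% in cyfluthrin samples. The flag is read from the same spots as the values and is not separate evidence.

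**Figure D3:**
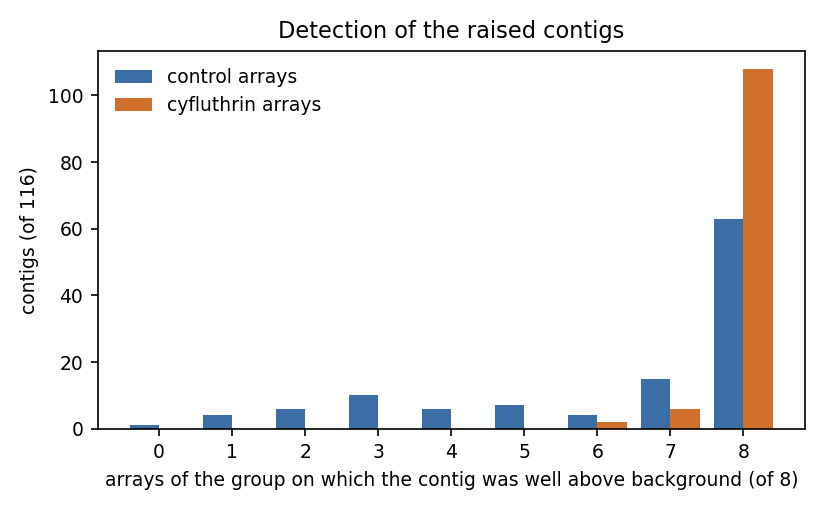
Number of the 116 contigs (vertical axis) by the number of arrays of a group, out of 8, on which the contig was well above background. Most contigs stand at 8 arrays with cyfluthrin, 108 in all, while 63 do so in controls.

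For contig_6287, 0 control arrays and all 8 cyfluthrin arrays were well above background, so its control level, and with it the size of its rise, is uncertain. On the 75th-percentile signal scale its mean was -5.46 in controls and -4.00 with cyfluthrin. Each control array was given the contig's own signal or, where higher, the signal of the dimmest contig detected there. Against the mean of these the rise was 2.21-fold on this scale. A contig can go undetected at a signal above that of the dimmest detected one, so this is not a strict lower bound. The 2.21-fold rise does not carry over to normexp background correction, given below, where the difference was -0.38. This contig passed the detection filter through its cyfluthrin arrays alone.

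Many contigs were printed more than once on an array. Of the members, 87 were printed as 2 spots and 29 as 1 spot (25%, against 26.1% of the tested contigs). The difference between the groups was computed for each spot on the 75th-percentile scale. It was above 0 for both spots in 86 of the 87, and at least 1.5-fold for both in 77. The average of these spots chose the members, which nearly fixes that direction. The spots of a contig differed by a median of 0.075 log2 units, against 0.055 over all tested contigs with 2 spots. The exception was contig_4457, whose spots gave -0.0069 and 1.81. The difference of this contig, one of the dimmest, came from 1 of its spots.

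Within the groups, the median SD of the raised contigs about the group means was 0.58 log2 units, against 0.42 over all tested contigs, and 83.6% of them lay above that median. The range was wide, from 0.25 to 1.34. Controls were the more variable group, with a median SD of 0.62 against 0.43 in cyfluthrin samples, and 83 members (71.6%) had the larger SD in controls. The same was true of 64.3% of all tested contigs. The rule bounds each value only toward the other group, so low controls and high cyfluthrin values were free to spread.

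The steadiest members were contig_966 and contig_6300. In contig_966 the controls ran from -0.73 over a median of -0.57 to -0.23 and the cyfluthrin samples from 0.23 over 0.69 to 1.15, a difference of 1.28 with a within-group SD of 0.25. Contig_6300 had controls from -0.77 to -0.13 (median -0.24) and cyfluthrin samples from 0.13 to 1.12 (median 0.68), with an SD of 0.28. The groups were apart in both.

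The most variable members each had 1 value far from the others. Contig_3540 had controls from -1.59 to 0.71 (median -0.56) and cyfluthrin values from -0.53 to 5.11 (median 0.92). Its highest value was in cyfluthrin replicate 1, followed by 2.04 in replicate 4, while replicates 7 and 8 stood at -0.53 and 0.045. Contig_3277 showed the reverse, with 1 very low control. Control replicate 7 stood at -5.24 and the other controls between -0.85 and 0.066, against a narrow range of -0.013 to 0.49 in cyfluthrin samples. Its signal was not well above background on 1 control array.

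**Figure D4:**
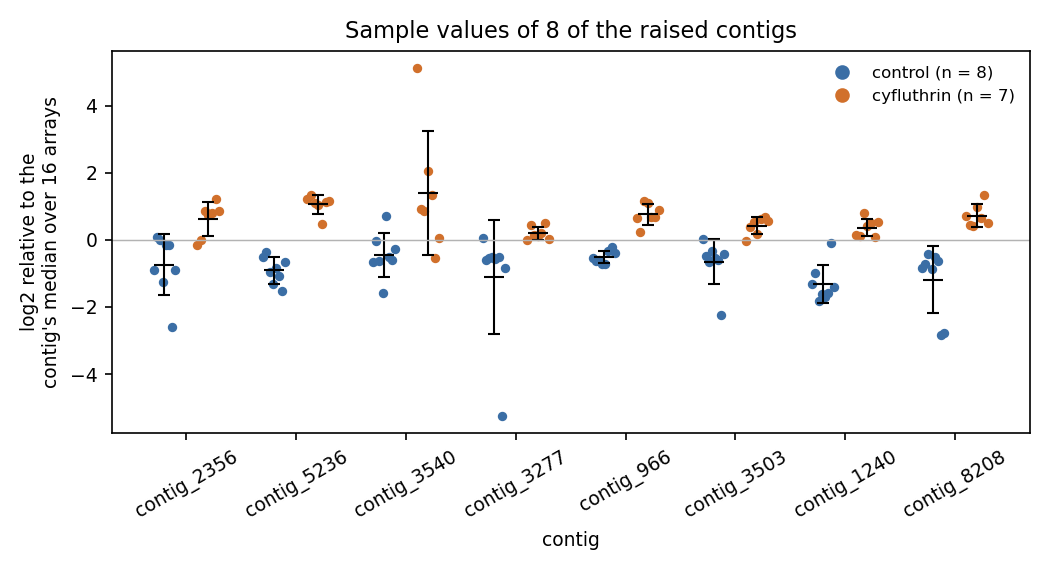
Values of 8 of the raised contigs in each control (blue) and cyfluthrin (orange) sample, as log2 relative to the contig's median over 16 arrays, with mean ± SD (n = 8 and 7). In contig_966 and contig_5236 the groups are apart and narrow, while contig_3540 and contig_3277 each have a single sample far from the rest.

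Control replicate 7 was the lowest control in 51 of the 116 contigs (44.0%), against 25.2% of all tested contigs. It held 23.5% of the squared deviation from the group means over the members and 8.95% over all tested contigs. In 18 members (15.5%, against 4.55% of tested contigs) it lay at least 1 log2 unit below the next lowest control, with a median value of -2.61 against -0.44 for the other controls. Its array was well above background for 7 of these 18. Their median difference was 1.27 with this array and 0.92 without it, and 10 of them fell under 1. The rule set no lower limit on control values, and a low value widened the difference. Contigs with a very low control were thus favoured, so these shares are not separate evidence about this array. This array also had the lowest 75th percentile of unscaled signal and the lowest share of detected contigs, and the part of that in the low values was not tested.

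Control replicate 1 stood apart in another subset. It lay at least 1 log2 unit below the next lowest control in 8 members (6.90%, against 3.44% of tested contigs), at a median of -2.80 against -0.31 for the other controls, and was well above background for 7 of them. Their median difference was 1.07 with it and 0.82 without it, and 6 fell under 1. The choice of the members favoured such low values here as well. For the members as a whole, control replicate 1 was instead often the highest control, in 38 contigs (32.8%), against 24.1% of tested contigs. Among cyfluthrin samples, replicate 1 was most often the lowest, in 35 members (30.2%), and replicate 3 most often the highest, in 34 (29.3%). The shares over all tested contigs were 21.7% and 17.5%.

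The members moved together only loosely once the group means were removed. Over the 6670 pairs of members, the median Pearson correlation of the deviations across the 15 samples was 0.13, against 0.016 over all pairs of tested contigs. A correlation above 0.5 was found in 14.5% of the member pairs and 10.4% of all pairs, and 36.5% of the member pairs were below 0. All pairs share the arrays and their scaling. Without control replicate 7 the median was 0.075 over member pairs and 0.027 over all pairs of tested contigs. The sample values behind these deviations also chose the members, so the higher correlation is not separate evidence that they move together. The first 3 principal components of the deviations held 29.6%, 17.0% and 13.6% of their variance.

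Against the median profile of the other members, the correlation of a member ran from -0.40 to 0.91 with a median of 0.36. It was above 0.5 in 46 members (39.7%) and below 0 in 20. Against the median profile of all members, 17.1% of tested contigs were above 0.5, with a median of 0.019. The closest to the common profile was contig_3503, with a correlation of 0.91. Its controls ran from -2.23 in replicate 7 to 0.035, with a median of -0.51, and its cyfluthrin samples from -0.035 to 0.69, with a median of 0.54. Contig_7189 followed with 0.86, with controls from -2.59 to 0.037 and cyfluthrin samples from -0.011 to 0.59. In both the lowest control was replicate 7.

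The least alike were contig_1240 and contig_5293, each with a correlation of -0.40. In contig_1240 control replicate 7 was the highest control, at -0.088, and the others ran from -1.82 to -0.99, while cyfluthrin values ran from 0.088 to 0.79. In contig_5293 control replicate 7 was again the highest control, at 0.022. The other controls ran from -1.23 to -0.35 and the cyfluthrin samples from -0.022 to 0.73.

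The contig with the most similar deviations was sought for each member among the 6850 other tested contigs. The highest correlation had a median of 0.90 over the members, and 12 of the closest contigs (10.3%) were members themselves. The other members made up 1.68% of the contigs searched. Pairs of members closest to each other, such as contig_2213 and contig_2214, are counted for both contigs, so the 12 are not independent. The deviations also come from the sample values that chose the members, which can favour shared deviations. The 10.3% is therefore not separate evidence that members are alike. The median difference of the closest contigs was 0.41, and 25 of them were lower with cyfluthrin. Correlations above 0.98 were found for 5 members. Contig_2213 and contig_2214, which are consecutive in the numbering, had a correlation of 0.99, differences of 1.08 and 1.08 and a typical gap of 0.052 between their deviations. Contig_1657 and its neighbour contig_1658, which lies just outside the range at the 0.998 given above, also reached 0.99. Contig_5331 and contig_7038 reached 0.98 without being neighbours, as did contig_3540 and contig_724, whose likeness includes the single high value of cyfluthrin replicate 1.

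Contig numbers of the members ran from 222 to 8604. Of the 181 tested contigs next to a member in number, 7 (3.87%) had a difference of at least 1, against 4.13% of all tested contigs. Their median difference was -0.085.

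Larger rises followed another order of samples. The 41 contigs that met the same conditions with a difference of 2 or more had medians from -2.97 to -0.34 in controls and from 0.30 to 2.07 in cyfluthrin samples. Their lowest control was replicate 6, which deviated from their control mean by -1.28 in the median, where the moderately raised contigs deviated by 0.032. Control replicate 7 deviated by 0.097 in the larger rises and by -0.60 in the moderate ones. Cyfluthrin replicate 2 was far below the other exposed samples for the larger rises, with a median deviation of -1.31, and near the mean for the moderate ones, at -0.039. The 114 contigs lowered by between 1 and 2 under mirrored conditions deviated in control replicate 7 by 0.68. These sets were chosen on the same contrast, and the differences between them in single samples were not tested.

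The arrays lay on 2 slides, a variable that the rule did not use. With the group in the model, limma called 0 of the 116 contigs for a difference between the slides at an adjusted p below 0.05. Of all tested contigs it called 1 (0.0146%). At an unadjusted p below 0.05 there were 9 members (7.76%), near the 7.21% of tested contigs. On the 75th-percentile signal scale of this fit, the median slide difference of the members, slide 2 minus slide 1, was 0.059 log2 units, with single contigs from -0.77 to 0.74 and a median standard error of 0.26. It was 0.15 in the authors' table, -0.19 with normexp background correction, and -0.0092 on the 75th-percentile scale without control replicate 7, so its direction depended on these choices. The smallest adjusted p among the members was 0.655.

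The cyfluthrin effect itself did not differ detectably between the slides. A test of the difference in effect called 0 of the members and 0 of all tested contigs in limma (0%), and 7 members (6.03%) at an unadjusted p below 0.05, against 4.09% of tested contigs. The median standard error of this difference was 0.52 log2 units, which limits what could be detected in a single contig. For the members the rule also bears on this test. A contig raised on 1 slide alone would mostly fail the conditions on single samples, so little is read from their 0 calls. The difference between the groups had a median over the members of 1.30 on slide 1, with 4 control and 4 cyfluthrin samples, and 1.23 on slide 2, with 4 and 3. It was above 0 on both slides in all 116, a direction that the rule nearly fixes.

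Array position was less even. Column 3 of the slides held 4 cyfluthrin arrays and 0 control arrays. The median over the members was 0.56, 0.78, 0.59 and 0.73 in these 4 samples and 0.23, 0.34 and 0.49 in the other 3 cyfluthrin samples, so that all in column 3 were higher. A comparison of these samples within the cyfluthrin group, chosen after the data were seen, called 0 members and 16 of all tested contigs (0.234%) in limma. At an unadjusted p below 0.05 it gave 10 members (8.62%) and 5.18% of tested contigs. On the 75th-percentile signal scale of this fit, the median column difference of the members was 0.21, with 79 of the 116 positive (68.1%, against 54.5% of tested contigs). It was 0.28 with 84 positive in the authors' table, 0.54 with 105 positive under E1A spike-in scaling and 0.017 with 62 positive under normexp. At an unadjusted p below 0.05, E1A scaling gave 23 members and 901 of all tested contigs, and normexp gave 8 and 216. In the authors' table without column 3, the median difference from controls was 1.099. Then 45 members fell under 1, and all 116 remained above 0.

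The size of the rise depended on how the arrays were scaled. On the 75th-percentile scale, the limma fit over all tested contigs gave the members a median difference of 1.05 with a median standard error of 0.26, and it called 100 of the 116. Among all tested contigs it called 30% in either direction and 7.47% as higher with cyfluthrin. The split between 512 higher and 1543 lower contigs depended on the scaling, with 719 and 724 under median scaling and 1410 and 151 under E1A scaling. Because the members were chosen on this contrast, nothing is read from the 100 members called. On the 75th-percentile scale 70 members kept a difference of at least 1. Quantile normalization gave a median difference of the members of 1.22, median scaling also gave 1.22, and scaling to the E1A spike-in probes gave 1.53. The median of all tested contigs also moved, from -0.16 with the 75th percentile to 0.32 with E1A scaling, and the members lay 1.22 above it in both, which is the same by construction, since each scaling subtracts 1 constant per array. All 116 were higher with cyfluthrin under each of these scalings, a direction that the choice of the members nearly fixes. Quantile normalization nearly repeats the values that chose them, and the other scalings subtract 1 constant per array.

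The 63 members well above background on all 16 arrays had a median difference of 1.15 in the authors' table, and the other 53 had 1.28. On the 75th-percentile scale the order turned, with 1.08 and 0.94. With normexp background correction, which adds an offset of 50 before scaling, the medians were 0.87 and -0.37. Then 48 of the 53 dim contigs and 5 of the 63 clear ones were lower with cyfluthrin. The median of all tested contigs was -0.37 under that correction, and 87 of the 116 members stayed above it.

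**Figure D5:**
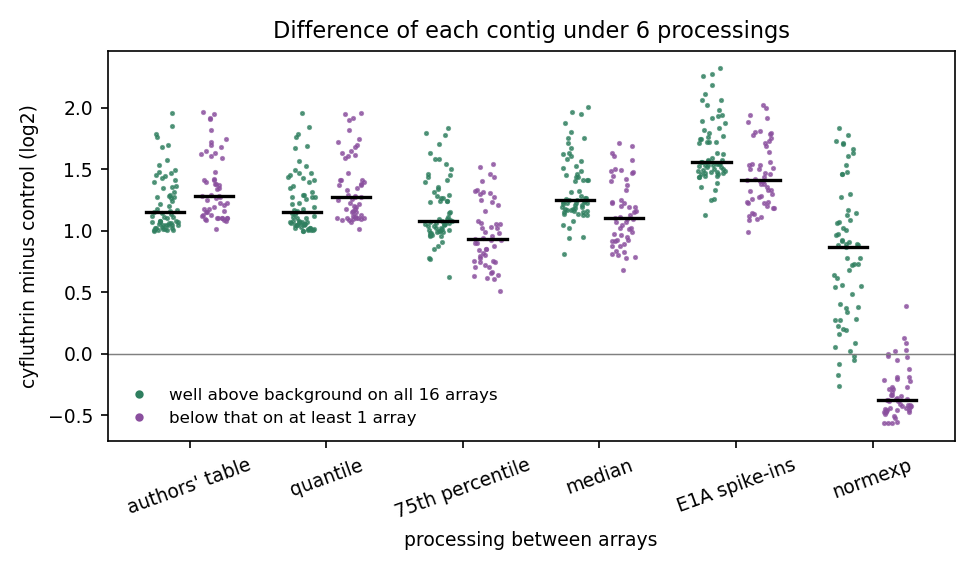
Cyfluthrin minus control difference (log2) of each of the 116 contigs under 6 processings, with contigs well above background on all 16 arrays in green and the others in purple; black bars are medians. The direction is upward for all contigs except under normexp, where the purple contigs have a median of -0.37 and the green ones 0.87.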

How the data were processed

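The authors' deposited value table holds log2 values. Set against the scanner files, they matched quantile-normalized values centred on each probe's median over 16 arrays, with a correlation of at least 0.986 on each array. Scale and centring are inferred from this, and column medians ran from -0.11 to 0.12. Per the file headers, the scanner intensity comes from Agilent Feature Extraction 11.5.1.1 (9.1 in the submitters' processing notes), background-subtracted and detrended within an array without scaling between them.

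Spots marked as outliers were left out, log2 signals were reduced by each array's 75th percentile, and the mean over a probe's spots was taken. The detection flag of a probe required that 50% or more of its spots were flagged well above background. Tests used limma 3.58.1 in R 4.3.3 over 6852 contigs, with Benjamini-Hochberg adjustment and a threshold of 0.05, after the steps were tested on simulated data. Normexp correction read the median pixel signal of spot and background. Where slides were compared, the array of replicate 5 stood for the averaged pair.

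The members and the rules for naming contigs were chosen with earlier results of these data known. Named contigs were the brightest, dimmest, most and least changed, most and least variable, best and least correlated and most separated members, those nearest the limits, and those not detected in controls. Contigs given for their closest profiles were named after their values were seen. Same-numbered samples of the groups did not pair, with correlations of their deviations from -0.67 to 0.47.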

Additional observations from a re-analysis of the deposited data

Results flagged for a closer look

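In 44 sets of values, the lowest or highest sample was compared with its group, and chance alone sets a sample apart in about 1 in 20 such sets. That rate does not hold for contigs named for their spread or their profile, such as contig_3277 and contig_3503. Nor does it hold for medians over the raised contigs, which were chosen on these sample values. Control replicate 7 had a median over the raised contigs of -1.27, and the other controls ran from -0.67 to -0.28. For the contigs below the detection flag on at least 1 array, the same sample stood at -1.61, against -0.90 to -0.28. Contig_3277 in control replicate 7 was -5.24, against -0.85 to 0.066, and contig_3503 there was -2.23, against -0.67 to 0.035. In cyfluthrin replicate 1, 95.7% of the raised contigs were well above background, against 99.1% to 100% in the other cyfluthrin samples. Contig_4457 in cyfluthrin replicate 7 was -1.39, against 0.041 to 0.81. Contig_5236 in cyfluthrin replicates 5 and 6, averaged, was 0.46, against 1.03 to 1.34. Contig_5293 in cyfluthrin replicate 7 was -0.022, against 0.48 to 0.73.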

How the results depend on the processing

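With the rule applied to other values of the same arrays, 72 contigs met it on the 75th-percentile scale, 51 with normexp and 438 with E1A scaling, which was added once the data had been seen. With contigs detected on all 16 arrays alone, 63 met it. Of the 116, 67, 22 and 98 were among those of the first 3. The median difference of the members was 0.088 with normexp and 1.53 with E1A scaling. Leaving out 1 sample at a time gave 92 to 149 contigs, 92 without control replicate 7 and 149 without control replicate 1. In limma, 2055 of all tested contigs and 100 members were called. Normexp called 3646 and 52, of which 7 members fell. Without column 3 it was 380 and 25, with 3 cyfluthrin samples left. Among the 5106 contigs detected on all arrays, 1768 were called, 457 of them as higher with cyfluthrin, and 61 of 63 members were called. The members were chosen on this contrast, so nothing is read from their counts. With replicate number as a block, which did not pair the samples, 949 or 974 of all contigs and 73 or 78 members were called, by the array that stood for the pair. Normexp turned the differences of contig_5949 (-0.56), contig_4457 (-0.55), contig_5236 (-0.45), contig_2157 (-0.17), contig_7189 (-0.46), contig_8208 (-0.21) and contig_6287 (-0.38). The cause was not tested. Under every alternative tried, the slide tests and the column test called 0 members. Of all tested contigs, the slide test called 1 to 2 when 1 sample was left out and 0 with quantile normalization or the authors' table. For the 53 contigs not detected on every array, signal near background limits the precision.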
